A study of Schizosaccharomyces pombe with 10 samples.

Results

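In the fission yeast Schizosaccharomyces pombe, 42 genes had much more transcript after hydrogen peroxide than before it in the wild type and in a strain with a phosphomimicking form of the transcription factor Atf1. In the 3 other strains sequenced beside them each member rose less, by a ratio of treated to untreated of 1.98 at most, or fell. The members were chosen by their measured response R, the log2 ratio of the treated level plus 1 to the untreated level plus 1, with levels in CPM, a gene's reads scaled to a common library total. R had to be at least 1.5 in both of the first strains and below 1 in each of the others, and the mean level over the 10 libraries at least 10 CPM. Of 7017 genes in the count table, 4985 reached that level and 53 of them (1.06%) met every limit on R. Of the 53, 5 noncoding genes with SPNCRNA identifiers and 6 named genes (tpx1, obr1, shu1, str3, frp1 and Tf2-7) were left out of the list, which left the 42. Because R chose the members, every R below is a description and carries no test.

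PolyA-enriched RNA was sequenced from cultures growing exponentially in minimal medium, left untreated or treated with 1 mM H2O2 for 15 min. The 5 strains carry the names of their labels. WT is the wild type, STY a sty1 deletion with wild-type Atf1, HA a sty1 deletion with HA-Atf1 and wild-type phosphorylation sites, 10D a sty1 deletion with the phosphomimicking HA-Atf1.10D, and 10M a sty1 deletion with the unphosphorylatable HA-Atf1.10M. Each strain and treatment had 1 library, and the labels do not say how many clones stood behind a strain. The study addressed how transcript levels, with and without peroxide, differ between cells with a phosphomimicking and an unphosphorylatable Atf1.

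The MAP kinase Sty1 of fission yeast answers many stresses and is related to mammalian p38. It phosphorylates Atf1, a bZIP protein that binds DNA with Pcr1 at sites of the cyclic AMP response element type and activates stress genes. A parallel route runs through Pap1, a bZIP protein of the AP-1 family that is oxidised by peroxide, accumulates in the nucleus and activates genes for thiol redox enzymes and drug export.

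Library totals ran from 9178795 counts in untreated HA to 26503471 counts in treated 10D. A count of 0 allowed up to 0.113 to 0.327 CPM, and depth was greatest in 10D and 10M. Batches are not labelled, and one that followed strain cannot be told apart from it. In WT, sty1 itself was counted at 295 CPM untreated and 300.1 CPM treated, and in STY at 9.13 and 8.38 CPM. In the libraries labelled HA, 10D and 10M it lay between 102 and 127 CPM, although the labels give these strains as sty1 deletions. The 3 names therefore stand for the libraries labelled so. Without those of HA in the rule 45 genes met it, without those of 10M 51, and with only STY held to the upper limit 60. Dropping a limit can only add genes, so each set contains all 42 members by construction. Without and with H2O2, WT held 158 and 632 CPM of atf1, STY 70.9 and 27.9 CPM, HA 569 and 611 CPM, 10D 506 and 699 CPM, and 10M 388 and 417 CPM. The pap1 transcript lay between 225 and 467 CPM in all 10 libraries. In such bulk samples, fewer cells with a transcript and less transcript per cell cannot be told apart.

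The stretches of DNA before the members' coding starts differed in which bZIP letters they held. Upstream sequence of 500 bases was read from the RefSeq assembly ASM294v3 for 41 members with a protein-coding annotation and searched on both strands, beside 5112 protein-coding genes. The letters TTACTAA, a form bound by Pap1-type factors, lay before 19 of 41 members (46.3%) and before 18.7% of all genes. TTAGTCA lay before 7 members (17.1%, against 7.57% of all genes), and TTACGTAA before 1 (2.44%, against 0.587%). TGACGT, the core of the Atf1-type site, lay before 2 members (4.88%, against 7.98% of all genes).

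Other letters were searched in the same way. TGACTCA lay before 3 members (7.32%, against 3.70%), GAANNTTC, a heat shock factor half-site pair, before 5 (12.2%, against 18.3%), and CCAAT before 21 (51.2%, against 59.5%). At least 1 of the first 3 motifs lay before 25 members, among them both members with TGACGT, while 16 had none of these 4. How many of all genes hold at least 1 of the 3 was not counted, so nothing is read from the 25. TTACGTAA and TGACGT share the letters ACGT and were counted separately. In a shorter window of 300 bases, TTACTAA lay before 11 members (26.8%, against 11.6%) and TGACGT before 1 (2.44%, against 5.30%). These matches are letters only, with no measurement of binding.

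The matches below are examples from members that hold a bZIP motif, not a ranking by response. The member ecl1, whose response was among the largest, had none of the searched motifs in its 500 bases. The examples stand before the kinase gene ppk8, the drug exporter gene bfr1, the thioredoxin gene trx1 and the flavin oxidoreductase gene SPBC23G7.10c. Other examples stand before the alcohol dehydrogenase gene adh8, the transporter gene mfs2, the siderophore gene sib2, and both members with the Atf1-type core. Each runs 5′ to 3′ on the strand of its gene, with the match in capitals; a match on the other strand appears as its reverse complement. The match began 356 bases before the coding start in ppk8, 102 in bfr1, 405 in trx1, 85 in SPBC23G7.10c, 181 in adh8, 138 in mfs2, 380 in sib2, 113 in SPBC2A9.02 and 393 in SPBC16A3.02c.
ppk8, TTACTAA: ctatataaacaTTACTAAattgggaattg
bfr1, TTACTAA: gaatcgttcaaTTACTAAtataaaacatc
trx1, TTACTAA: tttagctttgtTTACTAAttgtcaggttt
SPBC23G7.10c, TTACTAA on the other strand: ttgcggttagcTTAGTAAggaataacatt
adh8, TTAGTCA: agaaattccgtTTAGTCAatatattaagt
mfs2, TTAGTCA on the other strand: gaacaacgcgaTGACTAAagcaatctcag
sib2, TTACGTAA: cttaactgcagTTACGTAAgggcttagcgc
SPBC2A9.02, TGACGT on the other strand: gtcgctcttttACGTCAtgatcgcttac
SPBC16A3.02c, TGACGT: ctaaccaaataTGACGTaaggaattagc

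Across the 42 members, R ran from 1.54 to 6.07 in WT, with a median of 2.35, and from 1.56 to 6.92 in 10D, with a median of 2.29. The medians over all 4985 genes were −0.23 and −0.11. R of at least 1.5 was found in 4.31% of all genes in WT and in 3.13% in 10D, shares that the rule used and from which nothing is read. In the other strains, where the rule set an upper limit only, the members' median R was 0.03 in STY (−1.64 to 0.75), 0.23 in HA (−1.20 to 0.81) and 0.36 in 10M (−0.50 to 0.98). R was below 0 in 19 members in STY (67.4% of all genes), 14 in HA and 10 in 10M. It reached 0.5 in 2, 7 and 15 members. Apart from the 67.4%, shares over all genes were not counted here, so nothing is read from the other counts. The median of all genes was −0.18 in STY, −0.23 in HA and −0.12 in 10M. Of those 3 strains, 10M had the highest R in 25 members (59.5%; 45.4% of all genes) and STY the lowest in 26 (61.9%; 38.9% of all genes).

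**Figure D1:**
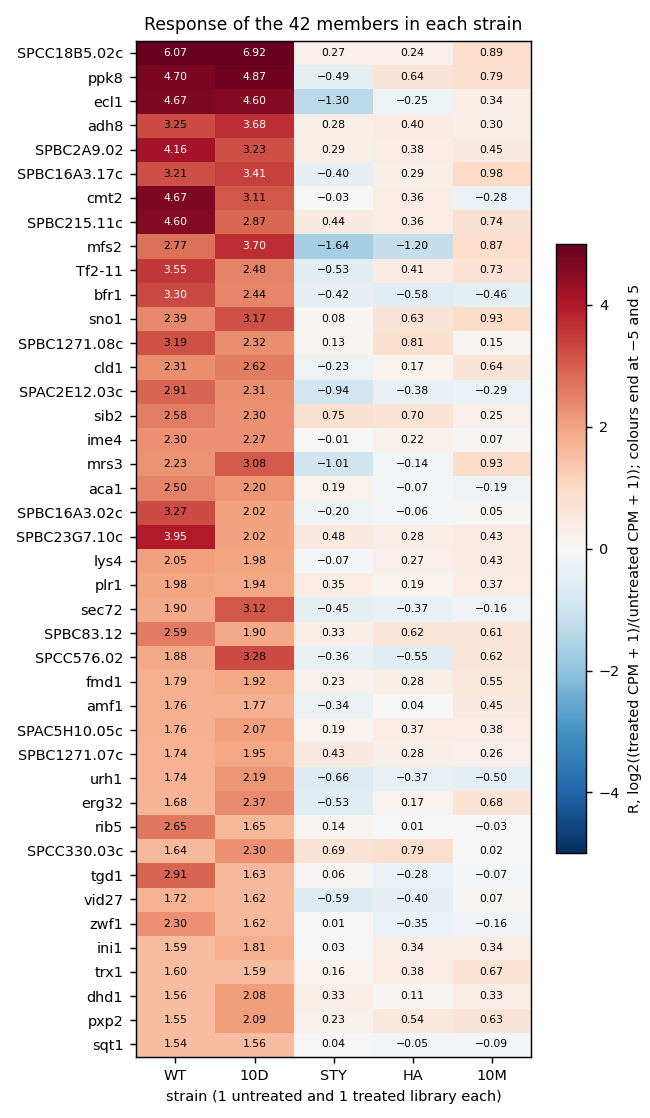
Response R of each of the 42 members (rows, ordered by the smaller of R in WT and R in 10D) in the 5 strains (columns), printed in each cell on the log2 scale with 1 untreated and 1 treated library behind each value. The red WT and 10D columns follow from how the members were chosen; the other columns run from −1.64 (mfs2 in STY) to 0.98 (SPBC16A3.17c in 10M).

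Between WT and 10D, which the rule let vary above 1.5, R was larger in 10D in 21 members and differed by less than 0.5 in 19. SPBC23G7.10c had an R of 3.95 in WT and 2.02 in 10D, and SPBC215.11c had 4.60 and 2.87. In the other direction, SPCC576.02 had 1.88 and 3.28, and the gene sec72 had 1.90 and 3.12. Close to the limits, the last members inside were SPBC16A3.17c (0.98 in 10M), sqt1 (1.54 in WT), pxp2 (1.55 in WT), dhd1 (1.56 in WT) and sno1 (0.93 in 10M). The nearest genes outside were lys3 (1.49 in 10D), prf1 (1.49 in WT and in 10D), asn1 (1.48 in WT), ccc2 (1.47 in WT) and SPAC186.06 (1.47 in WT, 1.01 in 10M).

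**Figure D2:**
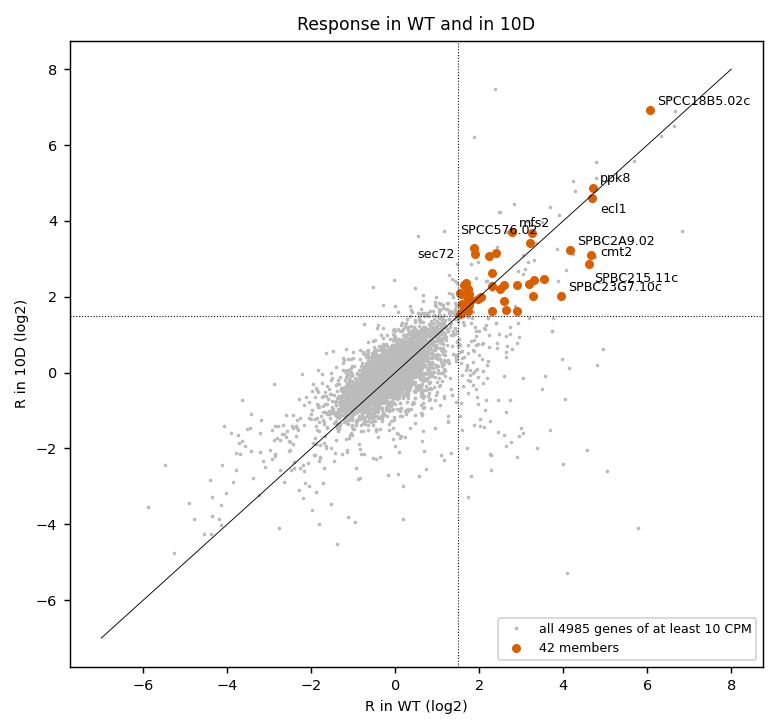
Response R in WT (horizontal axis, log2) against R in 10D (vertical axis, log2) for the 4985 genes of at least 10 CPM (grey) and the 42 members (orange). Dotted lines mark the limit of 1.5 used to choose members, and the solid line marks equal responses. SPCC18B5.02c (6.07, 6.92) lies farthest out among members. Other grey points beyond both limits failed the limits in STY, HA or 10M, or were left out by name or as noncoding genes with SPNCRNA identifiers.

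Redox enzymes made up 12 of the 42 members. Roles were assigned to the members only, after they were found, so nothing is read from the number of members in any role. In the redox enzymes R had a median of 1.88 in WT and 2.07 in 10D, and lay between 0.01 and 0.69 in STY. The alcohol dehydrogenase gene adh8 measured 23.1 CPM in untreated and 228 CPM in treated WT, 72.7 and 945 CPM in 10D, 31.0 and 37.8 CPM in STY, 25.9 and 34.5 CPM in HA, and 28.7 and 35.6 CPM in 10M. In this and later pairs of levels the untreated library comes first. The adh8 ratio of treated to untreated was 9.87 in WT (95% counting interval 8.59 to 11.4) and 13.0 in 10D (12.3 to 13.8). The 10D libraries held the most adh8 at rest and under peroxide, and STY, HA and 10M stayed within a narrow band. SPBC2A9.02, annotated as a NAD-dependent epimerase or dehydratase, measured 149 and 2683 CPM in WT and 383 and 3601 CPM in 10D. In STY it was at 45.1 and 55.2 CPM, in HA at 100 and 130.3 CPM, and in 10M at 106 and 146 CPM. Thus both untreated and treated levels were higher in WT and 10D than in any library of the other strains, and the ratio was 18.0 in WT (17.1 to 19.0) and 9.39 in 10D (9.16 to 9.63).

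The aldo/keto reductase gene SPBC215.11c had levels of 66.6 and 1643 CPM in WT, 379 and 2780.2 CPM in 10D, 71.6 and 97.6 CPM in STY, 84.8 and 109 CPM in HA, and 162 and 272 CPM in 10M. The ratio was 24.7 in WT (22.8 to 26.7) and 7.35 in 10D (7.16 to 7.54), from an untreated level that was highest in 10D. The NADH-dependent flavin oxidoreductase gene SPBC23G7.10c measured 31.1 and 494 CPM in WT, 196 and 796 CPM in 10D, 11.5 and 16.4 CPM in STY, 19.3 and 23.5 CPM in HA, and 10.1 and 13.9 CPM in 10M. Untreated 10D lay above every library of STY, HA and 10M. The dihydrodiol dehydrogenase gene dhd1 had levels of 48.3 and 144 CPM in WT, 195 and 827 CPM in 10D, 45.5 and 57.5 CPM in STY, 47.8 and 51.6 CPM in HA, and 71.7 and 90.2 CPM in 10M. For dhd1, the level in 10D without peroxide was above that in WT with it.

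Glucose-6-phosphate dehydrogenase, which supplies NADPH through the pentose phosphate pathway, is encoded by zwf1. Its transcript measured 643 and 3179 CPM in WT, 1003 and 3089 CPM in 10D, 556 and 559 CPM in STY, 578 and 454 CPM in HA, and 618 and 554 CPM in 10M. Treated WT and 10D were thus nearly level, from a higher start in 10D. Cytosolic thioredoxin, which reduces protein disulfides, is encoded by trx1, a gene on the Pap1-linked list. It had levels of 993 and 3013 CPM in WT, 1265 and 3804 CPM in 10D, 1202 and 1344 CPM in STY, 1138 and 1486 CPM in HA, and 929.5 and 1483 CPM in 10M. The 5 other redox members were the pyridoxal reductase gene plr1, the glutathione-dependent formaldehyde dehydrogenase gene fmd1, the cytochrome b5 reductase gene SPCC330.03c, the FAD-binding oxidoreductase gene SPAC5H10.05c and pxp2, which is annotated as a carboxymuconolactone decarboxylase-like protein gene. Their R lay between 1.55 and 1.98 in WT and between 1.92 and 2.30 in 10D.

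**Figure D3:**
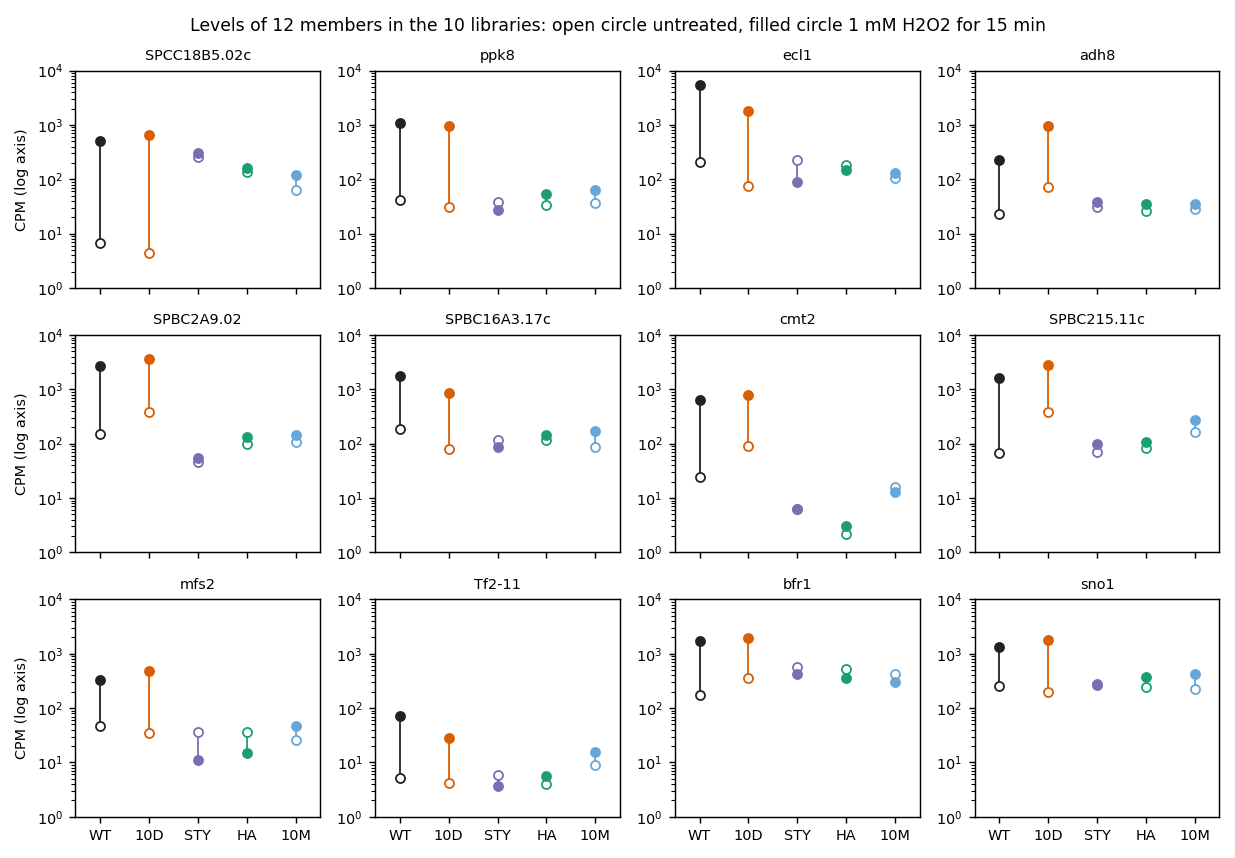
Level in CPM (logarithmic axis) of the 12 members with the largest smaller value of R in WT and 10D, in the 5 strains (horizontal axis); open circles are untreated libraries, filled circles are libraries after 1 mM H2O2 for 15 min, with 1 library each. The open and filled circles lie far apart in WT and 10D, as the choice of members requires, while the open circles of SPCC18B5.02c differ most between strains (4.38 CPM in 10D, 253 CPM in STY).

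The 6 transporters had a median R of 2.84 in WT and 2.76 in 10D. In STY their R ran from −1.64 to −0.34, and R in STY was below 0 in 67.4% of all genes. The brefeldin A efflux transporter gene bfr1, an ABC-type drug exporter on the Pap1-linked list, measured 177 and 1751 CPM in WT and 353 and 1923 CPM in 10D. It was at 559.8 and 419 CPM in STY, 534 and 357 CPM in HA, and 416 and 302 CPM in 10M. The 3 strains with little response thus began above WT and 10D and were lower after peroxide, while the ratio was 9.91 in WT (9.43 to 10.4) and 5.45 in 10D (5.30 to 5.59). The MFS transporter gene mfs2 had levels of 47.6 and 331 CPM in WT, 35.4 and 472 CPM in 10D, 36.9 and 11.2 CPM in STY, 35.7 and 15.0 CPM in HA, and 25.5 and 47.4 CPM in 10M. Its untreated levels lay between 25.5 and 47.6 CPM in all 5 strains, and only STY and HA were lower after treatment. The mfs2 ratio was 6.95 in WT (6.30 to 7.68) and 13.4 in 10D (12.3 to 14.5), against 0.302 in STY (0.241 to 0.376) and 0.419 in HA (0.345 to 0.508).

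SPBC16A3.17c, annotated as a transmembrane transporter gene, measured 189.7 and 1760.3 CPM in WT, 79.6 and 857 CPM in 10D, 116 and 88.1 CPM in STY, 119 and 146 CPM in HA, and 88.2 and 175 CPM in 10M. The ratios in WT and 10D, 9.28 (8.84 to 9.74) and 10.8 (10.2 to 11.4), were close although WT was the higher in both states. The other transporter members were SPAC2E12.03c, annotated as a vacuolar basic amino acid transporter gene, the mitochondrial iron transporter gene mrs3 and the transporter gene amf1. SPAC2E12.03c and mrs3 had an R of 2.91 and 2.23 in WT, 2.31 and 3.08 in 10D, and −0.94 and −1.01 in STY. For SPAC2E12.03c, hsf1 overlaps on the opposite strand at a mean level that was 295% of its own. The strand setting of the counting is not given in the sources used here, so reads of such pairs cannot be told apart.

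Metabolic enzymes gave 12 members, with a median R of 2.35 in WT and 2.25 in 10D. The catechol O-methyltransferase gene cmt2 had levels of 24.6 and 648 CPM in WT, 89.8 and 785 CPM in 10D, 6.34 and 6.20 CPM in STY, 2.18 and 3.07 CPM in HA, and 16.3 and 13.2 CPM in 10M. Both WT and 10D lay above every library of the other 3 strains already without peroxide. The ratio of cmt2 was 26.4 in WT (23.2 to 30.2) and 8.74 in 10D (8.30 to 9.21). The sno1 gene, for a glutamine amidotransferase subunit of vitamin B6 synthesis, measured 254 and 1332 CPM in WT, 200 and 1803 CPM in 10D, 261 and 276 CPM in STY, 242 and 374 CPM in HA, and 226 and 431 CPM in 10M. Untreated sno1 was similar in all 5 strains, and the ratio was 5.25 in WT (5.03 to 5.49), 9.01 in 10D (8.70 to 9.33) and 1.91 in 10M (1.84 to 1.99).

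The riboflavin synthase gene rib5 had levels of 54.0 and 343 CPM in WT, 187 and 588 CPM in 10D, 39.1 and 43.3 CPM in STY, 38.5 and 38.7 CPM in HA, and 55.7 and 54.7 CPM in 10M. The nucleotide-sugar dehydratase gene tgd1 was low, with levels of 5.93 and 50.9 CPM in WT, 25.7 and 81.8 CPM in 10D, 3.44 and 3.62 CPM in STY, 3.70 and 2.88 CPM in HA, and 3.19 and 2.98 CPM in 10M. At rest both genes were highest in 10D. The 8 other metabolic members were the homocitrate synthase gene lys4, which opens lysine synthesis, the ornithine N5-monooxygenase gene sib2 of siderophore synthesis, the C-5 sterol desaturase gene erg32, the cardiolipin phospholipase gene cld1, the uridine ribohydrolase gene urh1, the acetyltransferase genes aca1 and SPBC1271.07c, and SPCC576.02 of the hydantoin racemase family. Their R lay between 1.68 and 2.58 in WT and between 1.95 and 3.28 in 10D, and lys4 reached 7193 CPM in treated WT and 4518 CPM in treated 10D.

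Of the 7 members in signalling, RNA and other cell functions, the 2 with the largest responses were ppk8, a serine/threonine protein kinase gene, and ecl1, named as an extender of chronological lifespan. The ppk8 transcript measured 41.2 and 1098 CPM in WT, 31.1 and 939 CPM in 10D, 38.2 and 26.9 CPM in STY, 33.8 and 53.1 CPM in HA, and 36.7 and 64.3 CPM in 10M. All 5 untreated levels were close, and the ratio was 26.7 in WT (24.1 to 29.5) and 30.2 in 10D (27.7 to 33.0). The ecl1 transcript had levels of 209 and 5359.6 CPM in WT, 75.1 and 1841 CPM in 10D, 225 and 90.6 CPM in STY, 179.8 and 151 CPM in HA, and 104 and 132 CPM in 10M. WT stood above 10D in both states, with ratios of 25.6 (24.5 to 26.8) and 24.5 (23.2 to 25.9), while in STY the treated level was 0.403 of the untreated one (0.372 to 0.436). The others were the mRNA methyltransferase gene ime4, the Sec7 domain gene sec72, the WD repeat gene vid27, the RING finger-like gene ini1 and sqt1 of ribosome biogenesis, with R between 1.54 and 2.30 in WT and between 1.56 and 3.12 in 10D.

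The 5 members with no assigned role included the one with the largest response. SPCC18B5.02c, which RefSeq marks as a pseudogene of a cinnamoyl-CoA reductase, measured 6.66 and 513 CPM in WT, 4.38 and 652 CPM in 10D, 253 and 305 CPM in STY, 135 and 159.8 CPM in HA, and 64.7 and 121 CPM in 10M. The untreated levels of WT and 10D were far below those of the other strains, and the treated levels above them. The ratio of SPCC18B5.02c was 77.1 in WT (60.3 to 100.2) and 149 in 10D (119 to 189). Tf2-11, a retrotransposon with near-identical copies among which reads could be split, had levels of 5.20 and 71.7 CPM in WT, 4.15 and 27.7 CPM in 10D, 5.80 and 3.72 CPM in STY, 4.03 and 5.68 CPM in HA, and 9.10 and 15.7 CPM in 10M, so its level is uncertain. The uncharacterised genes SPBC16A3.02c, SPBC1271.08c and SPBC83.12 had an R of 3.27, 3.19 and 2.59 in WT and of 2.02, 2.32 and 1.90 in 10D.

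Levels before treatment were not what the rule asked for, although the untreated libraries enter R. In 9 members untreated WT and 10D both lay above STY, HA and 10M, against 13.5% of all genes, and these were SPBC16A3.02c, SPBC23G7.10c, SPBC2A9.02, SPBC83.12, cmt2, fmd1, sib2, tgd1 and zwf1. In 7 members both lay below the 3 others, against 15.9% of all genes, and these were SPAC5H10.05c, SPBC1271.07c, SPCC18B5.02c, bfr1, cld1, ini1 and sqt1. The remaining 26 had no such order at rest. After H2O2, both lay above the others in 41 of 42 members, the exception being SPBC1271.07c, and below in 0, against 33.8% and 28.5% of all genes. The order after H2O2 is largely fixed by the choice of members.

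Single libraries of 10D were then set against those of the other strains, counting members at least 2-fold apart with a 95% counting interval that excluded equality. At rest, 8 of 42 members were higher in 10D than in WT (3.39% of all genes) and 5 lower (3.07%). Against STY 11 were higher (6.38%) and 6 lower (3.65%), against HA 12 were higher (6.24%) and 4 lower (3.21%), and against 10M 9 were higher (3.61%) and 2 lower (1.99%). The members' median log2 ratio was 0.12, −0.04, 0.13 and 0.07 in these 4 comparisons, and that of all genes −0.14, −0.04, −0.06 and −0.14. The 9 members higher in untreated 10D than in untreated 10M were sib2, dhd1, adh8, SPBC215.11c, SPBC23G7.10c, SPBC2A9.02, cmt2, tgd1 and rib5. All 9 were also higher than in STY and in HA, and 8, all but sib2, were higher than in WT. The lowest ratio of untreated 10D was that of SPCC18B5.02c against STY (−5.56), HA (−4.66) and 10M (−3.61). For WT, 5 members were higher than in untreated STY (4.03% of all genes) and 5 lower (1.34%). Among the members counted, tgd1 reached the mean of 10 CPM only through 10D. SPCC330.03c, lower in 10D than in WT and higher in WT than in STY, reached it only through WT. The places of both genes in these counts are therefore in part set by the choice of members. The untreated libraries also enter R. A low untreated level in WT or 10D, or a high one in STY, HA or 10M, makes membership more likely. Counts of members lower in untreated WT or 10D than in STY, HA or 10M are thus also in part set by that choice. The same holds for members called lower in untreated WT or 10D against the pool of these strains below. These comparisons share the untreated 10D or WT library and have no replicate check.

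For tests across all genes, the libraries of STY, HA and 10M were pooled within each treatment. The error came from the differences between these strains, and the single WT and 10D libraries were taken to vary by as much. In untreated 10D against that pool, 6 members were higher and 0 lower by edgeR's quasi-likelihood test with Benjamini-Hochberg adjusted p below 0.05, against 2.32% of 6176 genes called higher and 0.356% called lower. One of the 6, tgd1, reached the mean of 10 CPM only through 10D (9.58 CPM over the 8 other libraries), so its call is in part set by the choice of members. At an unadjusted edgeR p below 0.05 there were 19 members, against 14.6% of all genes. DESeq2 called 12 members higher, against 4.23% of genes, and 3 lower, against 1.95%. SPBC23G7.10c was higher by 3.95 on the log2 scale (SE 0.40, edgeR adjusted p = 0.00435), tgd1 by 3.01 (SE 0.24, adjusted p = 0.00149) and rib5 by 2.18 (SE 0.21, adjusted p = 0.00289). The same edgeR test gave 1.93 for dhd1 (SE 0.28, adjusted p = 0.0188), 1.45 for adh8 (SE 0.16, adjusted p = 0.00666) and 0.89 for zwf1 (SE 0.17, adjusted p = 0.0457). This fit treats both libraries of a pooled strain as independent. With strain as a block in the pool, paired by treatment, edgeR called 14 members higher, the 6 among them, against 7.43% of genes, and 2 lower, against 2.49%, but the error then leaves out the differences between strains. The 6 members called without the block are 4 redox enzymes and 2 metabolic enzymes, and each lay above all 3 pooled libraries in the 10D library.

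The calls depended on which strains formed the pool. Without STY 3 members were called higher, against 0.705% of genes, and 0 lower, against 0.0641%. Without HA there were 2, against 0.386%, and 0, against 0.0161%, and without 10M 12, against 5.37%, and 1, against 1.63%. Of the 6 members, only adh8 and tgd1 kept the call without STY, and only SPBC23G7.10c and tgd1 without HA. All 6 kept it without 10M. Only tgd1 thus kept it in each of these fits, and its call is in part set by the choice of members. The log2 differences of the 6 members stayed between 0.86 (zwf1) and 4.29 (SPBC23G7.10c) in these fits. For tgd1, dhd1 and rib5, a counted gene on the opposite strand had a mean level of 88.7%, 60.8% and 78.9% of the member's own. The gene over tgd1, gal10, was itself at 36.7 CPM in untreated 10D against 1.07, 1.20 and 5.02 CPM in untreated STY, HA and 10M. Over dhd1, ams1 was at 175 CPM in untreated 10D against 65.0, 74.5 and 93.3 CPM, and over rib5, SPCC1450.12 was at 144 CPM against 95.1, 97.4 and 142 CPM. The part of these overlaps in the calls was not tested.

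**Figure D4:**
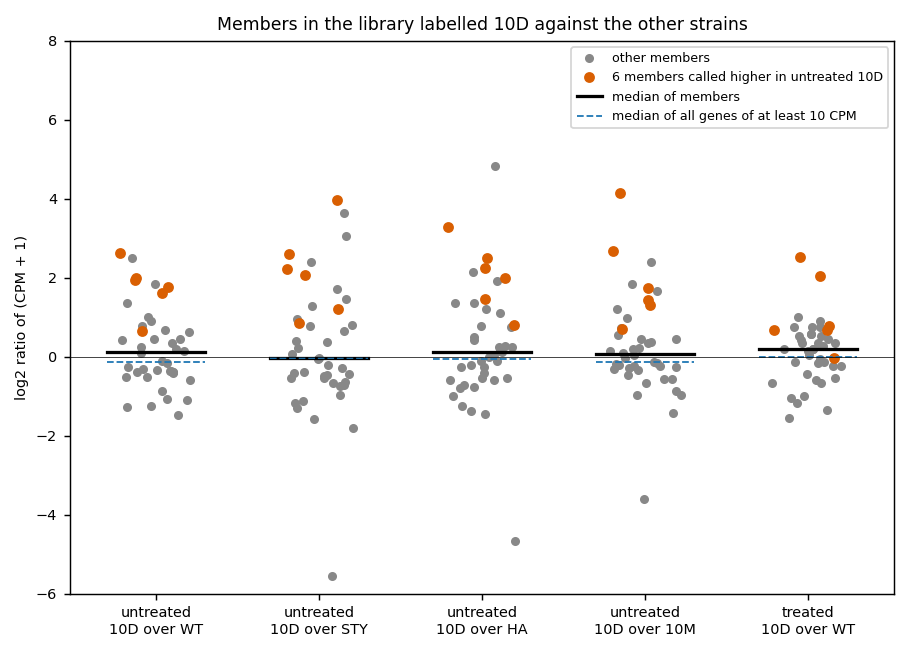
Log2 ratio of (CPM + 1) of each member in the library labelled 10D to that of another strain, for 4 untreated comparisons and 1 treated comparison (horizontal axis); orange points are the 6 members called higher in untreated 10D against the pool of STY, HA and 10M. Black bars mark the members' median and dashed blue bars that of the 4985 genes; medians lie near 0, the highest point is cmt2 against HA (4.84) and the lowest SPCC18B5.02c against STY (−5.56).

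In untreated WT against the same pool, edgeR called 0 members, against 0.0486% of genes called higher and 0.0162% lower. At an unadjusted edgeR p below 0.05 there were 10 members, against 6.98% of genes, and DESeq2 called 0 higher, against 0.496%, and 3 lower, against 0.39%. With strain as a block edgeR called 4 members higher, against 2.12%, and 5 lower, against 0.712%. Between untreated 10D and untreated WT, edgeR called 1 member higher, against 0.178% of genes, and 0 lower, against 0.0324%, with 13 members at an unadjusted p below 0.05, against 8.35%. DESeq2 called 7 members higher, against 1.51% of genes, and 0 lower, against 0.358%. With strain as a block edgeR called 10 higher, against 2.43%, and 0 lower, against 0.405%. The member called by edgeR without the block was adh8, higher in 10D by 1.84 on the log2 scale (SE 0.22, edgeR adjusted p = 0.0389). Without STY or without HA the call on adh8 was lost (edgeR adjusted p = 0.131 and 0.302), and without 10M it was 0.0476, while the difference stayed at 1.81 to 1.84.

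After H2O2, the level reached in 10D and in WT was compared, a difference that the rule does not fix. By the 2-fold count, 2 members were higher in treated 10D (2.23% of all genes), dhd1 by 2.51 and adh8 by 2.05 on the log2 scale. Lower in treated 10D were 4 members (4.09% of all genes), with log2 ratios of −1.54 for ecl1, −1.34 for Tf2-11, −1.16 for SPBC16A3.02c and −1.04 for SPBC16A3.17c. Of these, Tf2-11 reached the mean of 10 CPM only through WT, so its place in this count is in part set by the choice of members. The median ratio of the members was 0.21 and that of all genes −0.01. In edgeR's quasi-likelihood test 1 member was higher, adh8 by 2.11 (SE 0.22, adjusted p = 0.0476), against 0.0648% of genes, and 0 lower, against 0.0%. At an unadjusted p below 0.05 there were 12 members, against 13.8% of genes. DESeq2 called 4 higher, against 1.07%, and 0 lower, against 1.29%. The block by strain gave 4 higher, against 1.34%, and 1 lower, against 1.73%. The call on adh8 was lost when STY, HA or 10M was left out of the pool, with edgeR adjusted p from 0.0523 to 0.353, while the difference was 2.13 without STY, 2.13 without HA and 2.105 without 10M.

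Members on the lists of known stress genes are counted after the genes left out by name, several of which are on these lists. The lists were chosen with earlier results of these data known, so their counts and medians may be in part set by that choice. Over all genes, R reached 1.5 in 4.31% in WT and in 3.13% in 10D, and 1.06% met all limits on R. Of 18 Sty1-Atf1 stress genes measured, R reached 1.5 in 15 in WT and in 2 in 10D, where 8 were at −1.5 or below. The list's median R was 2.43 in WT and −1.41 in 10D, and its only member was plr1. The plr1 transcript had levels of 323 and 1273 CPM in WT, 558 and 2152 CPM in 10D, 760.0 and 971 CPM in STY, 669.8 and 763 CPM in HA, and 543 and 702 CPM in 10M, so untreated WT was the lowest of the 10 libraries. Of 15 Pap1-linked genes, R reached 1.5 in 11 in WT and 12 in 10D, with medians of 3.86 and 3.25, and 4 met all limits on R. Of these, trx1 and bfr1 are members, and tpx1 and obr1 were left out by name. Of 24 thiol and antioxidant enzymes it did so in 9 and 7, with medians of 1.10 and 0.69; 2 met all limits, trx1 as a member and tpx1 left out by name.

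Among 11 iron uptake genes, R reached 1.5 in 5 in WT and 8 in 10D, with medians of 1.25 and 2.27, and 4 met all limits. Of these, sib2 is a member, and frp1, str3 and shu1 were left out by name. The sib2 transcript measured 99.9 and 601 CPM in WT, 156 and 771 CPM in 10D, 63.8 and 108 CPM in STY, 60.2 and 98.6 CPM in HA, and 48.6 and 58.1 CPM in 10M, so WT and 10D were highest in both states. Of 10 drug and metabolite transporters it did so in 2 in WT and 3 in 10D, with medians of 0.74 and 0.79, and bfr1 alone met all limits. No member was among 12 heat shock proteins, whose median R was −1.04 in WT and −2.20 in 10D, nor among 11 sulfur amino acid genes or 17 proteasome genes. In none of those 3 lists did a gene reach 1.5 in WT or 10D. Over all genes the median R was −0.23 in WT and −0.11 in 10D, and the Pap1-linked, thiol and antioxidant, iron uptake and transporter lists lay above it in both strains. The Sty1-Atf1 list lay above it in WT and below it in 10D. The lists share genes and are not separate results. For example, ctt1, tpx1 and trx1 are on the Pap1-linked list and on that of thiol and antioxidant enzymes. Similarly, bfr1 and caf5 are on the Pap1-linked list and on that of transporters.

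On the chromosomes, 17 members lay on I, 19 on II and 6 on III. In 4 pairs of adjacent genes both met the limits on R, and 7 members were in such a pair. The pair ppk8 and ime4 is divergent, with 832 bases between the genes. SPBC1271.08c and SPBC1271.07c lie on the same strand 697 bases apart. The drug exporter gene bfr1 and SPCC18B5.02c lie on the same strand 2432 bases apart. SPCC576.02 converges, over 914 bases, on tpx1, the peroxiredoxin gene that met the limits but was left out by name. Its level was 992 and 9144 CPM in WT and 917 and 10270.2 CPM in 10D. The siderophore gene sib2 is divergent from sib1, whose R was 1.78 in WT, 2.20 in 10D and 1.25 in STY, above the limit for STY. The acetyltransferase gene aca1 is divergent from pcr1, which encodes the partner of Atf1 and had an R of 2.42 in WT and 0.77 in 10D. An annotated feature on the opposite strand overlapped 40 of the 42 members, and in 23 of them 1 that was counted. In 6 of those the counted overlapping feature had over 50% of the member's mean level, namely sqt1, SPAC2E12.03c, dhd1, SPBC83.12, tgd1 and rib5. The counts by chromosome, adjacent pair and overlap were not made over all genes, so nothing particular to the members is read from them.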

How the data were processed

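The authors deposited raw counts of reads per gene for 10 libraries. FastQC, TopHat2 2.1.1 and HTSeq are named, with no role given, per the submitters' processing notes. The genome build, annotation and strand setting are not given in the sources used here. CPM was taken as a count divided by the column total and scaled to the usual unit, and R as the log2 ratio with 1 CPM added. Ratios within a strain have exact binomial 95% intervals, which cover counting error only and may be too narrow, since PCR copies are not independent. The fit across genes used edgeR 4.0.16 in R 4.3.3 (TMM, filterByExpr, 6 cell means, 6176 genes, 4 residual degrees of freedom), and DESeq2 1.42.0 was the other tool. A further fit with strain as a block in the pool was added after seeing the data. SE is the absolute log2 change over the square root of F. Adjusted p below 0.05 was a call. The script was tested on simulated data.

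All 42 members and 6843 of 7017 table genes matched ASM294v3; 174 did not. Of 10 genes the rule leaves out by name, 6 met the limits on R and 4 did not (srx1, trr1, osr1 and SPCC663.08c). The members and the gene lists were chosen with earlier results of these data known, and members were grouped by role after they were found. Values in every library were given for the 12 members with the largest smaller value of R in WT and 10D, and for members called in a test or on a list. Nothing says that libraries came from separate cultures, and no p-value measures a spread between replicates. Without the block by strain, p-values rest on the spread between strains. With the block, they rest on what remains after strain differences are taken out.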

Additional observations from a re-analysis of the deposited data

Results flagged for a closer look

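In 3 members the response in STY was at −1 or below, against a rise in WT and 10D, and the difference was not tested. R in STY was −1.64 for the MFS transporter gene mfs2, −1.30 for ecl1 and −1.01 for the mitochondrial iron transporter gene mrs3. In HA, mfs2 had an R of −1.20, also opposite to WT and 10D and also untested. The rule set no lower limit on R in these strains. In 10M the same 3 genes had an R of 0.87 (mfs2), 0.34 (ecl1) and 0.93 (mrs3). Each value rests on 1 untreated and 1 treated library.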

How the results depend on the processing

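The number of members was 50 with TMM scaling (41 of them shared), 42 and 39 with 0.5 and 5 CPM added, 38 above 50 CPM and 45 with no minimum. It was 21 with R of at least 2 in WT and 10D and 24 with R under 0.5 in the other strains. TMM scaling moved the median R of all genes by 0.17 in WT, 0.15 in STY, 0.14 in HA, 0.04 in 10D and 0.05 in 10M. With it the members' median R was 2.52 in WT, 0.38 in HA and 0.41 in 10M. HA and 10M thus lay closer together than without it (0.23 and 0.36). With TMM the members' median log2 ratio of 10D was 0.30 to untreated WT, 0.23 to untreated 10M and 0.27 to treated WT. That to untreated STY turned from −0.04 to 0.04. With 5 CPM added the median R in 10D was 2.12. DESeq2 called 396 genes in untreated 10D and 59 in untreated WT against the pool (edgeR 165 and 4), and 148 and 115 between 10D and WT, treated and untreated (edgeR 4 and 13). Leaving out STY, HA or 10M gave 25 to 430, 0 to 42, 0 to 17 and 0 to 49 genes, the fewest without HA and the most without 10M each time. With 0 genes, at an unadjusted p below 0.05 there were 245, 451 and 329, each without HA. Of 56 gene tests rerun, 42 held, 14 lost the call and 0 reversed; zwf1 lost it with DESeq2 size factors in edgeR (adjusted p = 0.0543), and without STY or HA. No replicate numbers pair libraries. A replicate block by strain, added after seeing the data, paired the untreated and treated libraries of STY, HA and 10M (2 residual degrees of freedom) and called 613, 175, 190 and 175 genes in the order above; its error leaves out differences between strains.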
